A study of Mus musculus with 10 samples.

Results

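The genes described here are 9 genes of the sympathoadrenal lineage in the mouse adrenal gland: the transcription factor genes Phox2a, Hand2, Gata2, Gata3, Insm1 and Isl1, and the nicotinic acetylcholine receptor subunit genes Chrna3, Chrna7 and Chrnb4. They were chosen by name from probes paired with exactly 1 gene symbol, taking the probe with the highest mean per gene. Each of the 9 had 1 such probe, and all 9 were measured, among 19661 genes in all. Whole adrenal RNA of 5 Crem-/- mice (KO), which lack the cAMP responsive element modulator, and of 5 wild-type (WT) mice was hybridised to Affymetrix arrays, 1 array per mouse. All animals, KO and WT, shared a mixed background (129Pas x C57Bl/J), were 8 weeks old and untreated, and were killed at 0 h of circadian time, so that no group was stimulated. KO arrays are named KO 1 to KO 5 and WT arrays WT 1 to WT 5. Levels are given as log2 RMA values, where 1 unit is a 2-fold difference, and every difference between genotypes is KO minus WT.

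The adrenal medulla consists of chromaffin cells, which derive from the neural crest and release adrenaline and noradrenaline. Phox2a, Hand2, Gata2, Gata3, Insm1 and Isl1 encode factors that specify and maintain sympathetic neurons and chromaffin cells. Acetylcholine from splanchnic nerve endings opens nicotinic receptors on the chromaffin cell and so triggers the release of catecholamines. Receptors of alpha 3 and beta 4 subunits, encoded by Chrna3 and Chrnb4, are the main ganglionic type, while Chrna7 encodes a subunit that can form receptors alone. These genes are not particular to the medulla: Gata2 is also used in endothelium, Gata3 in T lymphocytes, and Insm1 in the endocrine pancreas.

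Chrna3 and Chrnb4 are direct neighbours on chromosome 9 in the RefSeq table, and Chrna5, a further subunit gene, lies on the other side of Chrna3. The start regions of 8 of the 9 genes, all but Insm1, were found in the RefSeq promoter table (GRCm38.p6), which holds 250 bases before and 50 bases after a start site. The windows of Chrna3 and Chrnb4 are shown because the genes are neighbours and form 1 receptor. Those of Hand2 and Isl1 are shown because they were the windows with the core TGACG of the cAMP responsive element, to which the CREM protein binds. Capitals mark matches on either strand to the letters TGACG, to the GATA-type site AGATAA and to the E-box CANNTG, in which factors of the Hand2 class bind.
Chrna3 (chr9:55026513-55026812, minus strand): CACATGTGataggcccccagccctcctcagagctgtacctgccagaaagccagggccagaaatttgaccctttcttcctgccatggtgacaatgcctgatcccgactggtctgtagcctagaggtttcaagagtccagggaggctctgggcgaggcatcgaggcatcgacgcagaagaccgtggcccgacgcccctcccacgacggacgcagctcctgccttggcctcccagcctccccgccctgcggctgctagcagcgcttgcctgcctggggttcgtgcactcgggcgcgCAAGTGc
Chrnb4 (chr9:55048495-55048794, minus strand): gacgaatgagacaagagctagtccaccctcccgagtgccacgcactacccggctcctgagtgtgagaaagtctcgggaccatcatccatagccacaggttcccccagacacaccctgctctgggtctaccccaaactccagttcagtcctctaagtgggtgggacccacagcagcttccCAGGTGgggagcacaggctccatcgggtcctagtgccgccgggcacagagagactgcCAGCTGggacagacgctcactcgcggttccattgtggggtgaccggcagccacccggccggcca
Hand2 (chr8:57320733-57321032, plus strand): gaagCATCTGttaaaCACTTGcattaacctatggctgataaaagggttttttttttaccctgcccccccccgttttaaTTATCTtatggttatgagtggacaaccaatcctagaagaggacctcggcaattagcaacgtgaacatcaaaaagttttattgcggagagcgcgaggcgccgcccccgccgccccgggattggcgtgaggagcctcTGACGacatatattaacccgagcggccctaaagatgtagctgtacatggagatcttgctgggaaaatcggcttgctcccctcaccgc
Isl1 (chr13:116309639-116309938, minus strand): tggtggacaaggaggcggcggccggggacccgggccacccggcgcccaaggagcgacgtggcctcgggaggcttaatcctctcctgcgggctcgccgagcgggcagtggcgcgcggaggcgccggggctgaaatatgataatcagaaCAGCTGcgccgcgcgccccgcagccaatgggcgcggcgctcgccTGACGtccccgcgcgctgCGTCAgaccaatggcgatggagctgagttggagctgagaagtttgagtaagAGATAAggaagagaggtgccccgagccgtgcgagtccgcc
The full element TGACGTCA, which contains TGACG, was in 0 of these 8 genes' windows and in 1.79% of the 32851 windows of that length in the table. TGACG was in 2 of the 8, against 20.8% of all windows, and AGATAA was in the same 2, against 11.2%. CANNTG was found for all 8 (for Gata2 in 1 of its 2 windows), against 72.3%. Matching letters describe the sequence and were not tested for binding.

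The arrays were not alike in their levels of tissue markers. KO 1 had a mean of 7.91 over 19 measured chromaffin markers (of 20 listed), against 10.23 to 10.91 on the other 9 arrays. Its mean was 12.65 over 8 liver markers, against 6.39 to 8.71 on the others, and 12.58 over 10 adipocyte markers, against 8.19 to 12.40. The 11 cortex markers averaged 12.09 on KO 1, 11.90 on KO 3 and 12.39 to 12.59 on the others. On the first principal component of all probes (53.8% of the variance), KO 2, KO 5 and WT 3 scored 69.4, 61.0 and 60.7, against -54.0 to 17.4 on the other 7 arrays. The batches of the labels are spread unequally: batch 1 holds KO 1, KO 2 and WT 1, batch 2 holds KO 3 and KO 4, batch 3 holds KO 5 and WT 2, WT 3 and WT 4, and batch 4 holds WT 5. The targeted gene, Crem, differed by -0.18 (standard error 0.26, limma adjusted p = 0.999), so its probe does not check the labels.

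All 9 genes had their lowest level on KO 1. Among all 19661 genes, 13.1% had their lowest level on that array. Each of the 9 was also at least 1 log2 unit lower on KO 1 than the mean of the other 9 arrays, where 1.98% of all genes were. These counts describe 1 array, and no test was made of them.

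Phox2a encodes a homeodomain factor that controls noradrenergic identity and drives the dopamine beta-hydroxylase gene. Its levels were 7.24, 8.69, 9.84, 9.999 and 8.50 on KO 1 to KO 5, against 9.63, 9.48, 8.99, 9.07 and 9.07 on WT 1 to WT 5. KO 3 and KO 4 lay above every WT array, and KO 1, KO 2 and KO 5 lay below every WT array. The mean was 8.85 ± 1.12 in KO against 9.25 ± 0.28 in WT (SD, n = 5 each).

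Hand2 encodes a basic helix-loop-helix factor needed for sympathoadrenal differentiation. Its levels were 7.56, 8.85, 9.77, 9.80 and 8.52 on KO 1 to KO 5, against 10.01, 9.35, 8.85, 9.35 and 9.09 on WT 1 to WT 5. WT 1 was the highest array, and the other WT arrays lay between KO 2 and KO 3. The mean was 8.90 ± 0.93 in KO against 9.33 ± 0.43 in WT (SD, n = 5 each).

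Gata2 and Gata3 encode zinc finger factors that bind the sequence GATA. Gata2 had levels of 7.58, 9.01, 9.80, 9.83 and 8.48 on KO 1 to KO 5, against 9.67, 9.56, 8.99, 9.55 and 9.01 on WT 1 to WT 5. Its order of arrays was much like that of Phox2a, with KO 3 and KO 4 highest and KO 1 and KO 5 lowest. Gata3, which is needed for catecholamine synthesis in the embryo, had levels of 6.98, 9.29, 9.50, 9.42 and 8.82 on KO 1 to KO 5, against 9.78, 9.61, 9.62, 9.59 and 8.86 on WT 1 to WT 5. For Gata3, 4 WT arrays lay above every KO array, and WT 5 lay among the KO arrays. The means of Gata2 were 8.94 ± 0.95 in KO against 9.36 ± 0.33 in WT, and those of Gata3 were 8.80 ± 1.05 in KO against 9.49 ± 0.36 in WT (SD, n = 5 each).

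Insm1 encodes a zinc finger repressor of neuroendocrine cells. Its levels were 7.15, 7.90, 9.10, 8.63 and 7.83 on KO 1 to KO 5, against 8.21, 8.47, 7.79, 8.24 and 7.94 on WT 1 to WT 5. KO 3 and KO 4 were the highest arrays and the groups overlapped. The mean was 8.12 ± 0.76 in KO against 8.13 ± 0.27 in WT (SD, n = 5 each).

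Isl1, a LIM homeodomain factor of sympathetic and motor neurons, had another order of arrays. Its levels were 6.35, 8.53, 7.83, 7.65 and 8.01 on KO 1 to KO 5, against 7.44, 7.49, 8.60, 7.89 and 7.56 on WT 1 to WT 5. KO 2 and WT 3 were the highest arrays, although both were among the lower ones for Phox2a, Hand2, Gata2 and Insm1. The mean was 7.67 ± 0.81 in KO against 7.80 ± 0.48 in WT (SD, n = 5 each).

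Chrna3 encodes the alpha subunit of the ganglionic receptor. Its levels were 6.19, 9.56, 10.26, 9.62 and 8.77 on KO 1 to KO 5, against 9.33, 9.44, 8.92, 9.24 and 9.31 on WT 1 to WT 5. The other 4 KO arrays surrounded the WT arrays, whose SD was 0.20. Chrnb4, its neighbour and partner subunit, had levels of 6.75, 8.02, 8.96, 8.93 and 7.63 on KO 1 to KO 5, against 8.28, 8.56, 7.79, 7.99 and 8.11 on WT 1 to WT 5. As for Chrna3, KO 3 and KO 4 were above every WT array and KO 5 below every WT array. Chrna7 had levels of 6.99, 9.02, 8.67, 8.11 and 8.27 on KO 1 to KO 5, against 7.77, 7.89, 8.59, 8.64 and 7.83 on WT 1 to WT 5. KO 2 was its highest array, and 2 WT arrays, WT 3 and WT 4, were close to KO 3. The means were 8.88 ± 1.59 in KO against 9.25 ± 0.20 in WT for Chrna3, 8.06 ± 0.93 in KO against 8.15 ± 0.29 in WT for Chrnb4, and 8.21 ± 0.77 in KO against 8.15 ± 0.43 in WT for Chrna7 (SD, n = 5 each).

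**Figure D1:**
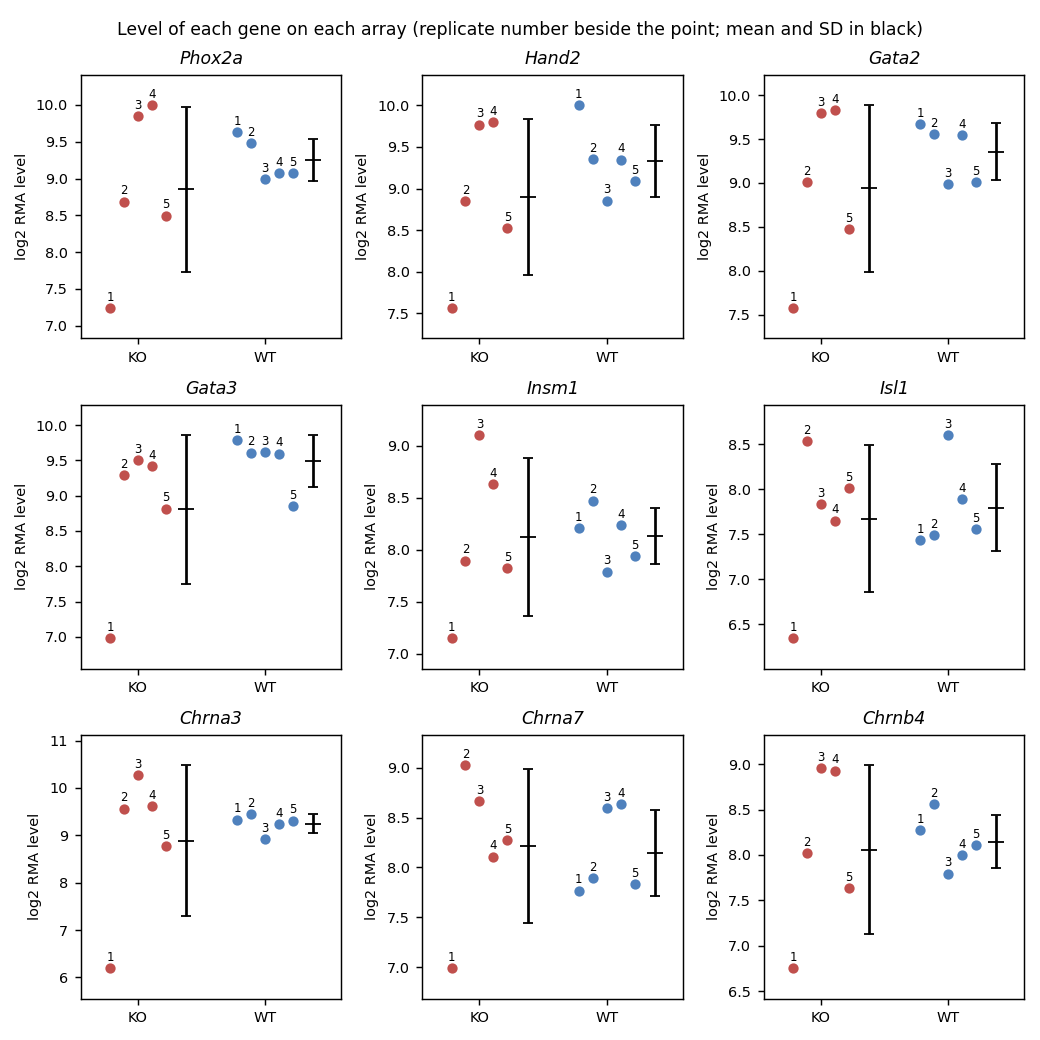
Levels (log2 RMA) of the 9 genes on each array, KO left and WT right, each point carrying its array's number, and with group means ± SD in black (5 arrays each). KO 1 is the lowest point in every panel, while KO 3 and KO 4 are above all WT arrays for Phox2a, Gata2, Insm1, Chrna3 and Chrnb4.

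The comparison of genotypes asks whether these genes of the medulla differ when Crem is absent. None of the 9 passed the threshold (limma, two-sided, adjusted p = 0.999 for each over 25664 probes), and 0 passed at an unadjusted p under 0.05. Over all probes 0% were called at an adjusted p under 0.05, 3.42% had an unadjusted p under 0.05, and 2.5% had such a p and were lower in KO. The levels of KO and WT overlapped for all 9 genes, and over all genes they did not overlap for 0.717%. The difference was negative for 8 of the 9 genes and for 53.2% of all genes, with a median of -0.37 over the 9 genes and of -0.0027 over all probes.

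Gata3 had the smallest unadjusted p and differed by -0.69 (standard error 0.44, 95% interval -1.67 to 0.29). Hand2 differed by -0.43 (standard error 0.41), Gata2 by -0.42 (0.40) and Phox2a by -0.39 (0.46). The widest interval was that of Chrna3, with a difference of -0.37 and a range of -1.77 to 1.04. The differences were -0.12 for Isl1 (95% interval -0.96 to 0.71), -0.09 for Chrnb4 (-0.95 to 0.77), -0.01 for Insm1 (-0.72 to 0.71) and 0.07 for Chrna7 (-0.72 to 0.85). In this fit, which leaves out batch, a difference of 1 log2 unit downward lay within the interval for Phox2a, Hand2, Gata2, Gata3 and Chrna3. It lay outside the interval for the other 4 genes. With batch as a fixed block it lay within the interval for those 4 too (lower bounds of -1.26 for Isl1, -1.48 for Chrnb4, -1.13 for Insm1 and -1.12 for Chrna7).

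In the fit without batch, the sign of the median depended on KO 1. Without that array it was 0.21 over the 9 genes, and the difference was 0.01 for Phox2a, -0.10 for Hand2, -0.08 for Gata2 and -0.23 for Gata3. It was then 0.31 for Chrna3, 0.24 for Chrnb4, 0.37 for Chrna7, 0.23 for Insm1 and 0.21 for Isl1, with 0 of the 9 called. With the mean of the chromaffin markers as a covariate, the differences were 0.04 for Phox2a, -0.05 for Hand2, -0.03 for Gata2, -0.22 for Gata3 and 0.30 for Chrna3. In whole glands, fewer chromaffin cells, less RNA per cell and a larger share of RNA from other tissues cannot be told apart. KO 1 also had the highest means of liver and adipocyte markers.

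With batch as a fixed block the difference was negative for 7 of the 9 genes, also without KO 1. The median over all probes was -0.055 in this fit and -0.081 when KO 1 was also left out. The share of all genes with a negative difference was not counted for these fits. Over all 10 arrays the difference was -1.14 for Phox2a, -1.20 for Hand2, -1.12 for Gata2 and -1.19 for Gata3. It was -0.50 for Insm1, -0.91 for Chrna3 and -0.67 for Chrnb4, but 0.01 for Isl1 and 0.06 for Chrna7. Phox2a, Hand2 and Gata2 then had an unadjusted p under 0.05, as 7.18% of all probes did, and 0 of the 9 were called (smallest limma adjusted p = 0.582). With batch as a random block the median was -0.47. Phox2a then differed by -0.54, Hand2 by -0.58, Gata2 by -0.54 and Gata3 by -0.75 (limma unadjusted p = 0.26, 0.18, 0.20 and 0.12). Isl1 differed by -0.07 and Chrna7 by 0.09, and 0 of the 9 were called (smallest limma adjusted p = 0.978). With batch as a fixed block and KO 1 left out (chosen after seeing the data), the median was -0.39. Phox2a then differed by -0.79, Hand2 by -0.86, Gata2 by -0.80 and Gata3 by -0.67, and these 4 had an unadjusted p under 0.05, as 13.6% of all probes did, with 0 of the 9 called (smallest limma adjusted p = 0.357). Isl1 (0.45) and Chrna7 (0.44) were positive in that fit. Its differences come from KO 2 against WT 1 and from KO 5 against WT 2, WT 3 and WT 4. The other batches hold 1 genotype each. KO 2 and KO 5 are both among the arrays apart on the first principal component. Within batch 1 alone the median over the 9 genes was -1.38, where the KO arrays are KO 1 and KO 2. KO 2 was below WT 1 for 6 of the 9 genes (differences of -0.94 for Phox2a and -1.16 for Hand2). The share of all genes with KO 2 below WT 1 was not counted. Within batch 3 the only KO array is KO 5. Its chromaffin mean was 10.23, against 10.72, 10.55 and 10.74 on WT 2, WT 3 and WT 4. The median over the 9 genes there was -0.48. With 1 KO array there, that value compares KO 5 with the 3 WT arrays and gives no spread among KO arrays. KO 3 and KO 4, the highest arrays for Phox2a, Chrna3 and Chrnb4, have no WT array in their batch and so enter no contrast within one. Likewise WT 5 has no KO array in its batch. Without KO 1 and the 3 arrays apart on the first principal component, KO 3 and KO 4 are the whole KO group, so that genotype and batch cannot be told apart, and 4 of the 9 genes had an unadjusted p under 0.05, as 13.6% of all probes did: Phox2a, Insm1, Chrna3 and Chrnb4, each higher in KO, with differences of 0.61, 0.65, 0.61 and 0.71 (smallest limma adjusted p = 0.326 over all probes).

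**Figure D2:**
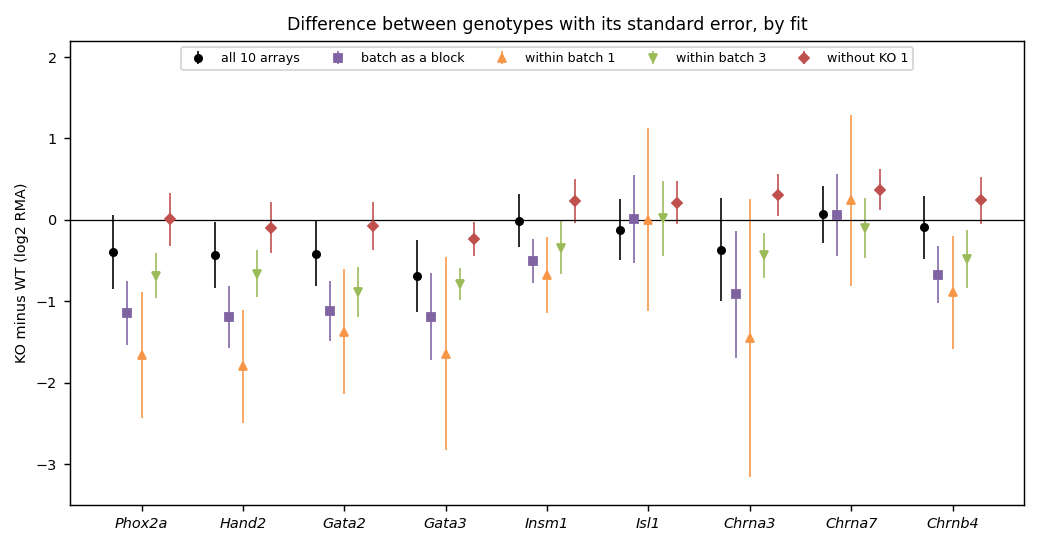
Difference KO minus WT (log2 RMA) with its standard error for each gene, for all 10 arrays, with batch as a fixed block, within batch 1, within batch 3 and without KO 1. The values without KO 1 lie between -0.23 and 0.37, above those with batch as a block for every gene.

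The measured distance of KO 1 from the mean of the other 9 arrays was 3.19 log2 units for Chrna3, 2.41 for Gata3, 2.01 for Phox2a, 1.75 for Gata2, 1.72 for Hand2, 1.54 for Isl1, 1.50 for Chrnb4, 1.32 for Chrna7 and 1.08 for Insm1, lower on KO 1 in each case. On KO 1 the level of 7 of the 9 genes was below that array's median over all probes (7.25). Without a detection call it is not known whether these levels are above background, so no order of the genes is read from the distances and the true ones may be larger.

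Chromaffin markers were also low on KO 1. Th, which encodes the first enzyme of catecholamine synthesis, was 3.79 log2 units lower on KO 1 than the mean of the others, Dbh (dopamine beta-hydroxylase) 4.36, Pnmt (the enzyme that makes adrenaline) 4.41 and Chga (chromogranin A of the secretory granule) 3.80. Of the 19 markers 17 were at least 1 unit lower on KO 1, with a median distance of 3.27. The markers differ in their levels on the other arrays (7.41 to 13.32, against 7.89 to 9.39 for the 9 genes), so the distances of the 2 lists were not compared. The exceptions, named after their values were seen, were Vgf (0.27 lower) and Penk (0.63 higher), both neuropeptide precursor genes. Vgf averaged 7.41 on the other arrays, close to the median of KO 1 (7.25), so that a fall may not be measurable. For the other cells that use these factors, 10 of 10 endothelial markers averaged 9.95 on KO 1 and 10.12 to 10.70 on the other arrays, and 6 measured T lymphocyte markers (of 7 listed) averaged 7.23 on KO 1 and 6.09 to 6.67 on the others. Of the 10 endothelial markers 2 were at least 1 unit lower on KO 1, and of the 6 T lymphocyte markers 0 were, where 1.98% of all genes were. Kdr, an endothelial receptor gene, was 0.57 lower on KO 1, and Cd3e of T lymphocytes was 0.55 higher. Ins2, the insulin gene of the pancreas, was at 5.93 on KO 1 and at 5.75 to 6.29 on the others. Alb (albumin, of liver) was at 14.13 on KO 1, with a highest level of 11.29 elsewhere. Ucp1 of brown fat was 3.32 higher on KO 1 than the mean of the others, but its highest level was on KO 3 (12.64, against 12.16 on KO 1). Cyp11b1 of the cortex was 0.47 lower on KO 1 than the mean of the others. The 7 measured glial markers (of 9 listed) averaged 7.14 on KO 1 and 6.83 to 7.30 on the others, and the 9 markers of peripheral neurons 6.38 on KO 1 and 6.45 to 6.77 on the others. The part of these other tissues in the levels of the 9 genes was not tested.

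Other genes of the same pathways are counted by the same measure, which 1.98% of all genes met. Of 13 other nicotinic subunit genes, 0 were at least 1 unit lower on KO 1, but 11 of the 13 were already below the median of 7.25 on the mean of the other arrays, where a fall may not be measurable. Chrna5, the third gene of the cluster, was 0.61 lower on KO 1. Of 18 measured genes for other sympathoadrenal factors and partners (of 20 listed), 1 was at least 1 unit lower: Tfap2b, an AP-2 factor of the neural crest, at 5.62 on KO 1 and 6.90 to 8.78 on the others. Of 18 genes for nicotinic receptor assembly and the cholinergic synapse, 3 were: Ric3, a chaperone of nicotinic receptors (1.44 lower), Ache, the acetylcholinesterase gene (1.02 lower), and Chrm3, a muscarinic receptor gene (1.01 lower). Bche, butyrylcholinesterase, which liver makes, was 2.61 higher on KO 1. Of 7 neurotrophic receptor genes 0 were lower by 1 unit, with 3 of the 7 below the same median on the other arrays, and Gfra1, a GDNF co-receptor gene, was 1.42 higher. Tfap2b, Ric3, Ache, Bche and Gfra1 were named after their values were seen.

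**Figure D3:**
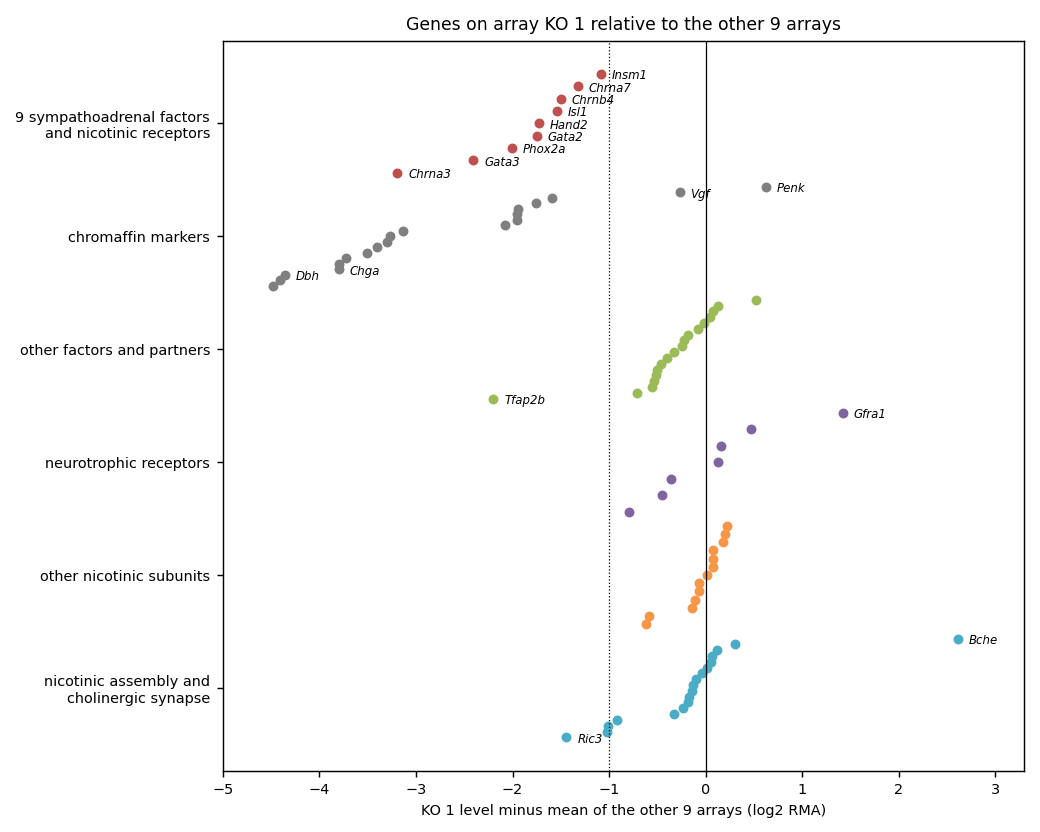
Level on KO 1 minus the mean of the other 9 arrays (log2 RMA) for single genes, by list, with a dotted line at -1. All 9 sympathoadrenal and receptor genes lie left of the dotted line, as do 17 of 19 chromaffin markers, while 0 of 13 other nicotinic subunit genes do, 11 of which averaged below 7.25 on the other arrays.

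On the other 9 arrays the genes fell into different orders. Phox2a ranged over 1.50 log2 units, Hand2 over 1.48, Chrna3 over 1.50, Gata2 over 1.36, Chrnb4 over 1.32 and Insm1 over 1.31, and Gata3 over 0.97. KO 5 was the lowest of these arrays for Phox2a, Hand2, Gata2, Gata3, Chrna3 and Chrnb4, and WT 3 was the lowest for Insm1. Relative to the mean of the 9 arrays, KO 5 deviated by -0.76 in Phox2a, -0.77 in Hand2 and -0.84 in Gata2, against a deviation of -0.41 in the chromaffin mean. KO 3 deviated by 0.88 in Chrna3, 0.87 in Insm1 and 0.70 in Chrnb4, with 0.10 in the chromaffin mean.

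Isl1 and Chrna7 ran differently from Phox2a, Hand2 and Gata2. On KO 2 they deviated by 0.64 and 0.71, where Phox2a, Hand2 and Gata2 deviated by -0.57, -0.44 and -0.32. On WT 3 they deviated by 0.71 and 0.28, where Chrna3 and Chrnb4 deviated by -0.46 each. WT 1 was the lowest of the 9 arrays for both, with deviations of -0.45 and -0.54, and was the highest for Hand2 and Gata3. For Chrna7, KO 3 (0.35) and WT 4 (0.33) deviated further upward than WT 3. Levels above the mean on both KO 2 and WT 3 were not particular to these 2 genes. The chromaffin marker Slc18a2 was highest there (9.23 and 9.17), as was Tfap2b (8.78 and 8.68), both named after their values were seen. Dbh, at 11.85 and 11.75, was below its mean of 12.35 over the 9 arrays. KO 2 and WT 3 are 2 of the 3 arrays that stood apart on the first principal component, and its part in this pattern was not tested.

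**Figure D4:**
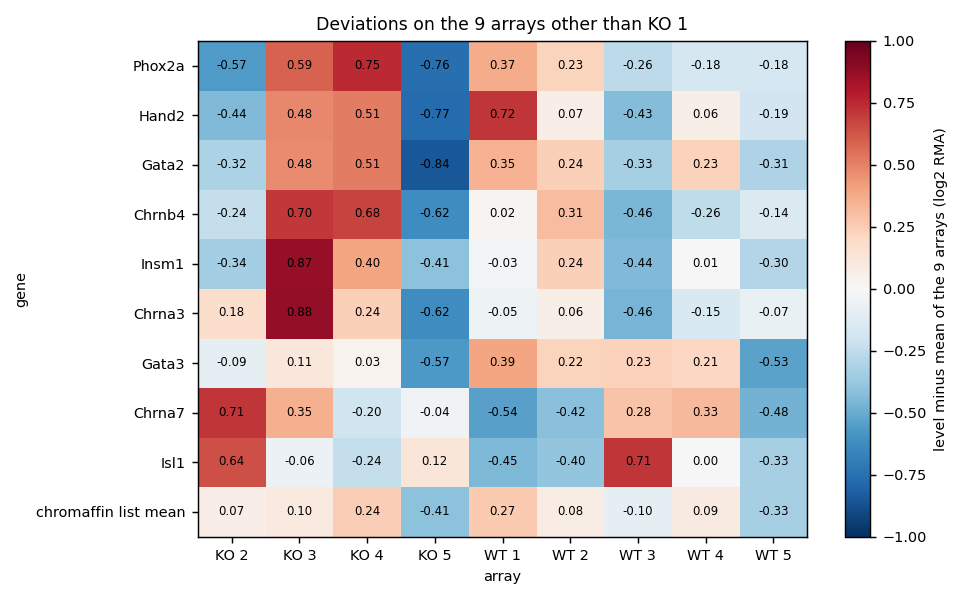
Deviation of each gene from its mean over the 9 arrays other than KO 1 (log2 RMA), with the mean of the chromaffin markers in the last row. KO 3 and KO 4 are high and KO 5 low in the upper rows. Chrna7 and Isl1 are above their means on KO 2 and WT 3 and below them on WT 1.

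Pairs of the 9 genes are described here by Pearson r without a test, since they share the low values of KO 1. Without KO 1, r was 0.94 for Hand2 with Gata2, 0.92 for Phox2a with Gata2, Hand2 and Chrnb4, and 0.92 for Insm1 with Chrnb4. The neighbours Chrna3 and Chrnb4 had an r of 0.86, and Isl1 and Chrna7 one of 0.83, over the same 9 arrays. Isl1 had a negative r with Hand2 (-0.65), Phox2a (-0.60), Gata2 (-0.53) and Chrnb4 (-0.52). With KO 1 included these r were 0.31, 0.38, 0.39 and 0.34.

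Across all 10 arrays, 7 of the 9 genes varied with the mean of the chromaffin markers, which include none of the 9. The share of all genes that would pass the same test was not counted, so these counts are not shown to be particular to the 9 genes. The adjustment was made over 9 relations, and the genes and lists were chosen with earlier results of these data known. Gata3 had a Pearson r of 0.97 (permutation p = 0.00103, adjusted 0.00309) and a Spearman rho of 0.70 (permutation p = 0.0306, adjusted 0.0394). Chrna3 had an r of 0.95 (permutation p = 0.00459, adjusted 0.00689) and a rho of 0.73 (permutation p = 0.0195, adjusted 0.0293). Gata2 had an r of 0.89 (permutation p = 1e-04, adjusted 9e-04) and a rho of 0.92 (permutation p = 0.00051, adjusted 0.00229), and Hand2 an r of 0.86 (permutation p = 0.00048, adjusted 0.00216) and a rho of 0.94 (permutation p = 0.00021, adjusted 0.00189). Phox2a, Chrnb4 and Insm1 had r of 0.88, 0.82 and 0.73 (permutation p = 0.00156, 0.00254 and 0.00792, adjusted 0.00351, 0.00457 and 0.0102) and rho of 0.90, 0.78 and 0.79 (permutation p = 0.00077, 0.0102 and 0.00898, adjusted 0.00231, 0.0184 and 0.0184). Isl1 had an r of 0.71 and a rho of -0.10 (permutation p = 0.0726 and 0.784, adjusted 0.0726 and 0.784). Chrna7 had an r of 0.69 and a rho of 0.18 (permutation p = 0.0474 and 0.632, adjusted 0.0534 and 0.712).

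By Pearson r these relations depended in part on KO 1, and by rank less so for Hand2, Gata2 and Phox2a. Without KO 1 and KO 5, the 2 arrays farthest from the median of the chromaffin mean, r was 0.76 for Gata2, 0.73 for Gata3, 0.69 for Hand2, 0.56 for Phox2a, 0.49 for Insm1, 0.48 for Chrnb4 and 0.33 for Chrna3, and 0 of 9 passed after adjustment (smallest exact permutation adjusted p = 0.130). It was 0.02 for Chrna7 and -0.20 for Isl1. Spearman's rho over these 8 arrays was 0.88 for Hand2, 0.83 for Gata2, 0.81 for Phox2a, 0.64 for Insm1, 0.57 for Chrnb4, 0.48 for Chrna3 and 0.40 for Gata3. Without KO 1 alone, 3 passed: Gata2 (r = 0.87, exact permutation adjusted p = 0.00903), Gata3 (r = 0.84, exact permutation adjusted p = 0.0336) and Hand2 (r = 0.80, exact permutation adjusted p = 0.0336). Without KO 1 rho was 0.92 for Hand2, 0.88 for Gata2 and 0.87 for Phox2a. No batch holds more than 4 arrays, so batch means were removed from both measures and the arrays permuted within batches (288 exact permutations). Over all 10 arrays r was then 0.92 for Phox2a, 0.89 for Hand2 and 0.90 for Gata2 (exact permutation adjusted p = 0.0208 each) and 0.90 for Chrnb4 (exact permutation adjusted p = 0.0312), and 4 of 9 passed. It was 0.98 for Gata3, 0.97 for Chrna3, 0.78 for Insm1, 0.70 for Isl1 and 0.66 for Chrna7 (exact permutation adjusted p = 0.0729, 0.0938, 0.0729, 0.587 and 0.587). Without KO 1 it was 0.95 for Gata2, 0.88 for Gata3, 0.84 for Phox2a and 0.82 for Hand2. There 0 of 9 passed (96 permutations, smallest exact permutation adjusted p = 0.0625), and so few permutations limit how small a p can be.

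The genes most like each of the 9 over the 10 arrays, by Pearson r, were given as a description without a test, since all share the low value of KO 1. For Phox2a they were Nsg2 (r = 0.99), Ptprn (0.99), which encodes a protein of secretory granules, and Tmem59l (0.98). For Hand2 they were Rundc3a (0.99), Gal (0.99), the galanin gene, and Uchl1 (0.98), a neuronal deubiquitinase gene. For Gata2 they were Adcyap1r1 (0.99), the receptor gene for the neuropeptide PACAP, Gal (0.98) and Astn1 (0.98). For Gata3 they were Mab21l2, Pcsk1 and Slc18a1 (0.98 each), of which Pcsk1 encodes a prohormone convertase and Slc18a1 a vesicular monoamine transporter, both of them on the chromaffin list. For Insm1 they were Ggt7 (0.97), Csmd1 (0.96) and Mobp (0.96).

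For Isl1 the nearest genes were Prkg2 (0.97), a cGMP-dependent kinase gene, Scn3a (0.96), a sodium channel gene, and Ryr2 (0.96), a calcium release channel gene. For Chrna7 they were Fam171b (0.98), Insyn2a (0.96) and Gdap1 (0.95). For Chrnb4 they were Pacsin1, Mapk8ip2 and Elapor1 (0.98 each). For Chrna3 they were Nrsn1 (0.97), Lgr5 (0.96) and Ncam1 (0.96), the gene of a neural adhesion molecule. In the 9 arrays without KO 1 the r of these 3 with Chrna3 was 0.78, 0.71 and 0.77, while that of the first gene named stayed at 0.98 for Phox2a, Hand2 and Gata2 and was 0.92 for Isl1.

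Among the lists of the same pathways 0 genes passed between the genotypes. Of the 18 other factors and partners, 1 had an unadjusted p under 0.05, where 3.42% of all probes did: Kdm1a, a histone demethylase gene whose product INSM1 can recruit, at 8.99 ± 0.26 in KO against 9.28 ± 0.08 in WT (SD, n = 5 each), a difference of -0.29 (limma adjusted p = 0.999). The median difference of that list was -0.13, and Rest, the repressor of neuronal genes, differed by -0.28, Lmo4 by -0.19 and Ldb1, a cofactor of LIM domain factors, by -0.20. The 13 other nicotinic subunit genes had a median difference of 0.02, and in each of the other lists 0 genes had an unadjusted p under 0.05. Chrna2 differed by 0.12, Chrna4 by -0.17, Chrna5 by -0.16 and Chrnb1 by -0.09. In the list of nicotinic assembly and the cholinergic synapse (median -0.00), Tmem35a, a chaperone gene of nicotinic receptors, differed by -0.34, Bche by 0.83, Chrm3 by -0.40 and Lypd1 by -0.16. Without KO 1 the difference of Tmem35a was -0.18 and that of Bche 0.35. In the 7 neurotrophic receptor genes the median was -0.07, with Ntrk3 at 0.25, Alk at -0.07, Gfra3 at -0.09 and Gfra1 at -0.10, the last of which was -0.43 without KO 1.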

How the data were processed

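The authors' deposited table gives log2 levels for each probe, which they computed by RMA (background correction, quantile normalisation, summary of probes), per the labels. Neither the software version nor filters are stated in the labels. The table has 35557 rows, of which 25689 have values on all arrays. After removal of 25 control probes, 25664 were tested, and 20777 of them carry 1 gene symbol. RMA gives no detection call, so no gene was classed as absent, and precision depends on the 10 arrays. Each array is 1 numbered mouse in the labels.

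Genotypes were compared in R 4.3.3 using limma 3.58.1 (lmFit and eBayes, genotype as the only term, Benjamini-Hochberg over all probes, threshold 0.05), tested on simulated data. Relations with the chromaffin markers were tested with 100000 permutations, or all pairings below 10 arrays. Alternatives were batch as a fixed or random block, within batches 1 and 3, 2 further normalisations, eBayes with trend, array weights, brighter probes, the chromaffin mean as a covariate, and leaving out each array. Fits without KO 2, KO 5 and WT 3, with batch as a block and without KO 1, and relations with batch means removed were added after the data were seen. Named were the 9 genes, Crem, single markers, the 4 genes of each pathway list with the smallest p, and the 3 genes most like each of the 9. The genes and lists were chosen with earlier results of these data known.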

Additional observations from a re-analysis of the deposited data

Results flagged for a closer look

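Of 20 groups of 5 arrays checked (KO and WT for each of the 9 genes and for the chromaffin mean), 3 had an array far from the others, where chance gives about 1 in 20. Gata3 was 6.98 on KO 1, with the next KO array at 8.82. The mean of the chromaffin markers was 7.91 on the same array, with the next KO array at 10.23. Gata3 was also 8.86 on WT 5, with the next WT array at 9.59, and the chromaffin mean of WT 5 (10.32) was the lowest of the WT arrays.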

How the results depend on the processing

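In every setting tried, 0 of the 9 genes and 0 probes were called (limma, adjusted p under 0.05). At an unadjusted p under 0.05 the main comparison had 878 probes. The median difference of the 9 genes was -0.37 and lay between -0.63 and 0.21 with each array left out, the highest being without KO 1. It was -1.38 within batch 1 and 0.37 without KO 1, KO 2, KO 5 and WT 3.

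Signs changed as follows. Isl1 was 0.0101 with batch as a fixed block, 0.00186 within batch 1 and 0.0174 within batch 3, and Chrna7 was -0.10 within batch 3. With batch as a block and without KO 1, Isl1 was 0.45. Insm1 was 0.0156 with quantile normalisation repeated. With the chromaffin mean as a covariate Phox2a was 0.0407, Insm1 0.26, Isl1 0.17, Chrna3 0.30 and Chrnb4 0.26. Without KO 2, KO 5 and WT 3, Insm1 was 0.0798 and Chrna7 -0.11. Without these and KO 1, Phox2a was 0.61, Hand2 0.33, Gata2 0.37, Gata3 0.00216, Insm1 0.65, Isl1 0.15, Chrna3 0.61 and Chrnb4 0.71, and 4 of the 9 had an unadjusted p under 0.05, as 13.6% of all probes did. With each array left out the ranges were -0.68 to 0.00812 for Phox2a, -0.66 to -0.10 for Hand2, -0.64 to -0.08 for Gata2, -0.86 to -0.23 for Gata3, -0.25 to 0.23 for Insm1, -0.34 to 0.21 for Isl1, -0.71 to 0.31 for Chrna3, -0.14 to 0.37 for Chrna7 and -0.31 to 0.24 for Chrnb4.

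The number of the 9 genes that varied with the chromaffin mean was 7, with no count over all genes to set beside it. It lay between 3 and 8 with each array left out, the lowest being without KO 1, was 0 without KO 1 and KO 5, and was 4 with batch means removed. The cause of these changes was not tested, and fewer arrays give less power. Each of the 9 genes has 1 probe, so the mean of all probes gave the same values. No paired analysis was possible because the labels give no replicate number that the genotypes share.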
